A study of Mus musculus with 12 samples.

Results

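Glycogen, the branched glucose store of the heart, is made and broken down by a small set of enzymes and the proteins that control and place them. A set of 9 such genes was taken by name from the gene counts of mouse hearts: Gyg, Gys1, Gbe1, Pygm, Pygb, Phka1, Ppp1r3c, Stbd1 and Gaa. They are 9 of the 49315 genes counted, and all 9 passed the filter on low counts that left 15476 genes for testing. The hearts came from wild-type C57BL/6J females in a design that crossed diet with pregnancy, with 3 libraries in each of 4 groups. The Western diet postpartum group had eaten a diet in which fat gave 45% and sucrose 17% of the energy, for 15 weeks before mating, and was killed 1 day after delivery. The control diet postpartum group had eaten a diet with 10% of its energy as fat and was killed at the same point. The Western diet nonpregnant and control diet nonpregnant groups ate the same diets for the same time without mating. All 4 groups were 27 to 29 weeks old when killed. The series asks whether metabolic syndrome, the cluster of obesity and insulin resistance that this diet is used to induce, goes with harmful remodelling of the pregnant heart. The diet models an early stage of that syndrome, per the labels.

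A glycogen particle starts on glycogenin, which attaches the first glucose units to itself, and glycogen synthase then lengthens the chains while the branching enzyme adds side chains. Glycogen phosphorylase removes glucose units in the cytosol and is switched on by phosphorylase kinase, whereas protein phosphatase 1, brought to the particle by targeting subunits, acts against it and for the synthase. A separate route takes glycogen into lysosomes, where acid alpha-glucosidase digests it, and Stbd1 is a membrane-anchored protein that binds glycogen and can bind the Atg8-type protein Gabarapl1. Heart muscle holds glycogen as a reserve for times of high work or low oxygen, and loss of Gaa in humans causes Pompe disease, in which glycogen fills the lysosomes of heart and skeletal muscle.

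The promoter of Stbd1, the one gene of the 9 whose level differed between groups past the test used below, is shown with those of Ppp1r3c and Gaa, the only 2 of the 9 that hold the letters CACGTG in the 250 bases before the RefSeq start. Sequences are those of RefSeq on GRCm38.p6, 5′ to 3′ on the strand of the gene, and all 9 genes had an entry. Bases that the annotation of the count files places in an exon were left off the 3′ end. Capitals mark GGGCGG or CCGCCC in Stbd1 and CACGTG, which reads the same on both strands, in the others. The Stbd1 stretch lies at chr5:92602801-92603040 on the plus strand, that of Ppp1r3c at chr19:36736654-36736854 on the minus strand and that of Gaa at chr11:119267713-119267886 on the plus strand.
Stbd1: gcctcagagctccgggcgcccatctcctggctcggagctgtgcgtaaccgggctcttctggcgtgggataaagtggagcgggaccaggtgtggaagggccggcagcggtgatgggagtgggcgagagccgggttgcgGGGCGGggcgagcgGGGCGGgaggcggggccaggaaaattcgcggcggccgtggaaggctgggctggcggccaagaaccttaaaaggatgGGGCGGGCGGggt
Ppp1r3c: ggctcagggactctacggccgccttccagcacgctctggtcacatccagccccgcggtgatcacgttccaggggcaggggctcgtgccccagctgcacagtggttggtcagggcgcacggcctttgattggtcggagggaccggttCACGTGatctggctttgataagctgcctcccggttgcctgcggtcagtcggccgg
Gaa: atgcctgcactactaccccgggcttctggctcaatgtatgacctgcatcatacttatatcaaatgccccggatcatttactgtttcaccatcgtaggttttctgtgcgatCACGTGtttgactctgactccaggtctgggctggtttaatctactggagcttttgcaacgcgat

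The Stbd1 stretch holds 4 matches to GGGCGG, the core of the binding motif of SP1-type factors, of which the last 2 overlap each other. GGGCGG or its reverse CCGCCC occurs in 32.7% of the 32851 RefSeq promoter windows of 250 bases, among them those of Stbd1, Gys1, Gyg and Phka1. The full Stbd1 window was 71.2% G or C, against a median of 52.4% over all windows, and 7.83% of windows were at or above it. CACGTG, the core shared by clock factors and the TFEB family, was found in 6.02% of windows. TATAAA, in 12.4% of windows on either strand, AGAACA, in 16.1%, and GTAAACA, in 3.17%, had no match in the 9 windows. A match describes the letters only.

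Total counts per library ran from 22754591 to 29492416, and the upper limit of a gene without a count, 3 counts, came to 0.102 to 0.132 CPM (counts scaled to a common library size), for counting error only. Cardiomyocyte markers were abundant in each library, with a summed level of 6 genes between 61396 and 74506 CPM, as the label of heart tissue implies. Control diet postpartum replicate 3 stood apart in that it carried genes of fat tissue, with Ucp1 at 73.0 CPM and Adipoq at 19.6 CPM, against at most 0.544 and 0.542 CPM in the other 11 libraries. Western diet postpartum replicate 2 also stood apart: without it the interaction test called 53 genes, against 0 with it. The titles carry a running number in which every postpartum library comes before every nonpregnant one, so an effect of this order and one of pregnancy cannot be told apart. The labels are silent on whether the 3 libraries of a group are from 3 animals, so each p-value speaks of the spread among these libraries alone, which may be technical.

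On a scale that allows levels of different genes to be set side by side, CPM divided by exon length in kb, the 9 genes spanned a wide range. Pygm, the muscle form of glycogen phosphorylase, was the most abundant, with a median of 392 CPM per kb over the 12 libraries and a range of 337 to 430.2. Pygb, the brain form, which heart also makes, followed at 172 CPM per kb, and Gyg, glycogenin, at 69.4. The ranges of these 3 genes did not overlap, and Gyg at its lowest, 61.0 CPM per kb, stood above the highest value of the next gene.
Ppp1r3c, a glycogen-targeting subunit of protein phosphatase 1, had a median of 42.4 CPM per kb, Gaa 33.3 and Gys1, the muscle form of glycogen synthase, 26.9. Their ranges overlapped, but within libraries Gaa was above Gys1 in 12 of 12, and Ppp1r3c was above Gaa in 11 of 12, all but Western diet postpartum replicate 2. Gbe1, the branching enzyme, at 10.6 CPM per kb and Phka1, the muscle form of the regulatory alpha subunit of phosphorylase kinase, at 10.4 also overlapped, with Gbe1 the higher in 6 of the 12 libraries. Stbd1 was the lowest of the 9 at a median of 4.96 CPM per kb. Averaged over the libraries, it stood at 1.39% of the Pygm level in the same library. Its range of 3.86 to 8.04 overlapped that of Phka1, 7.02 to 15.1, which was the higher in 11 of the 12 libraries.

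**Figure D1:**
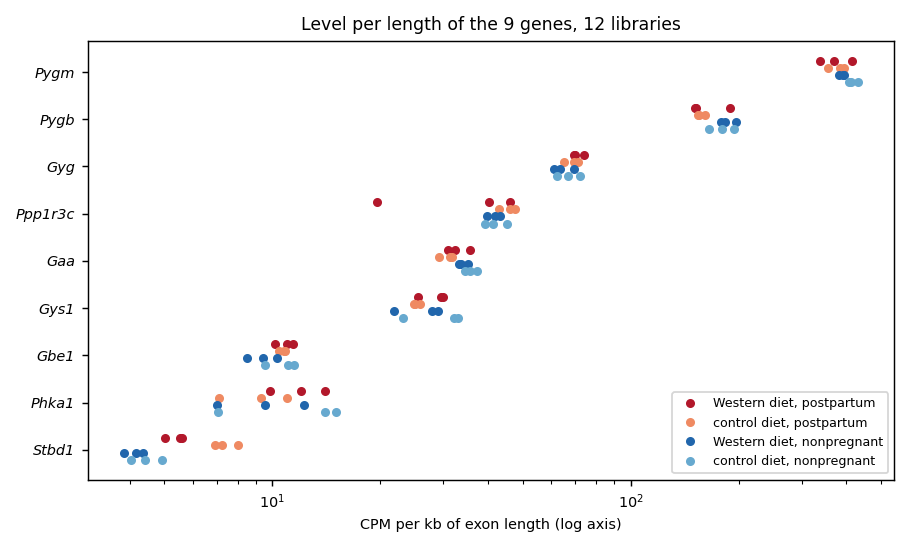
Level of each of the 9 genes in CPM per kb of exon length, on a log axis, with a point for each of the 12 libraries, coloured by group. Pygm, Pygb and Gyg occupy separate bands at the top (medians 392, 172 and 69.4), and Stbd1 lies lowest (median 4.96) with the control diet postpartum points on its right.

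Of the 9 genes, Stbd1 alone passed the test in any comparison. Its level was higher in postpartum than in nonpregnant hearts on the control diet, 1.66-fold, and over both diets together, 1.47-fold. It was lower in Western diet postpartum than in control diet postpartum hearts, at 0.727 times the level. The other 8 genes did not pass in any of the 8 comparisons. The test was edgeR's quasi-likelihood F test on the counts of all 12 libraries, two-sided, with Benjamini-Hochberg adjustment over the 15476 genes at a threshold of 0.05, and every adjusted p printed here is from it unless another tool is named.

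The counts read as follows against the share of all genes called. Between control diet postpartum and control diet nonpregnant hearts, 1 of 9 was called, and 0.239% of all genes were. There 3 members, Stbd1 among them, and 12.5% of all genes had an unadjusted p under 0.05. Between Western diet postpartum and control diet postpartum hearts, 1 of 9 was called, and 0.879% of all genes were. There 1 member and 14.6% of all genes had an unadjusted p under 0.05. Over both diets, postpartum against nonpregnant, 1 of 9 was called, and 1.78% of all genes were. There 3 members, Stbd1 among them, and 17.6% of all genes had an unadjusted p under 0.05. With a single gene called, the shares called say nothing of the 9 as a group.
No member was called by edgeR between Western diet postpartum and Western diet nonpregnant hearts, where 0.588% of all genes were called and 2 members had an unadjusted p under 0.05, as did 14.7% of all genes. None was called between Western diet and control diet nonpregnant hearts (0.0582% of all genes; 1 member and 9.58% of all genes had an unadjusted p under 0.05), or between Western diet postpartum and control diet nonpregnant hearts (2.62% of all genes; 2 members and 18.2% of all genes under the unadjusted 0.05). None was called for the effect of diet averaged over pregnancy states (1.38% of all genes; 1 member and 14.3% of all genes under the unadjusted 0.05). DESeq2 and limma-voom also called no member in these 4 comparisons, except that DESeq2 called Stbd1 for the average effect of diet, where it called 479 of all genes.
The interaction, the difference of the postpartum effect between the Western and the control diet, called 0% of all genes by edgeR, with 1390 of 15476 genes and 1 of the 9 at an unadjusted p under 0.05. DESeq2 called 39 genes there and limma-voom 0, and neither called a member. DESeq2 gave Stbd1 no adjusted p there (log2 value -0.36 ± 0.17), so it could not have called that gene.

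The median log2 fold change of the 9 genes is given here without a test. It was 0.11 between Western diet postpartum and Western diet nonpregnant hearts and -0.14 between control diet postpartum and control diet nonpregnant hearts, where the medians of all genes were -0.0026 and -0.0068. It was 0.052 between Western diet and control diet postpartum hearts and -0.100 between Western diet and control diet nonpregnant hearts, with medians of all genes of -0.00056 and -0.00057. Values above 0 were found for 5, 3, 6 and 1 of the 9 genes in these 4 comparisons in that order. The comparisons share libraries, so their values are not independent of each other.

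**Figure D2:**
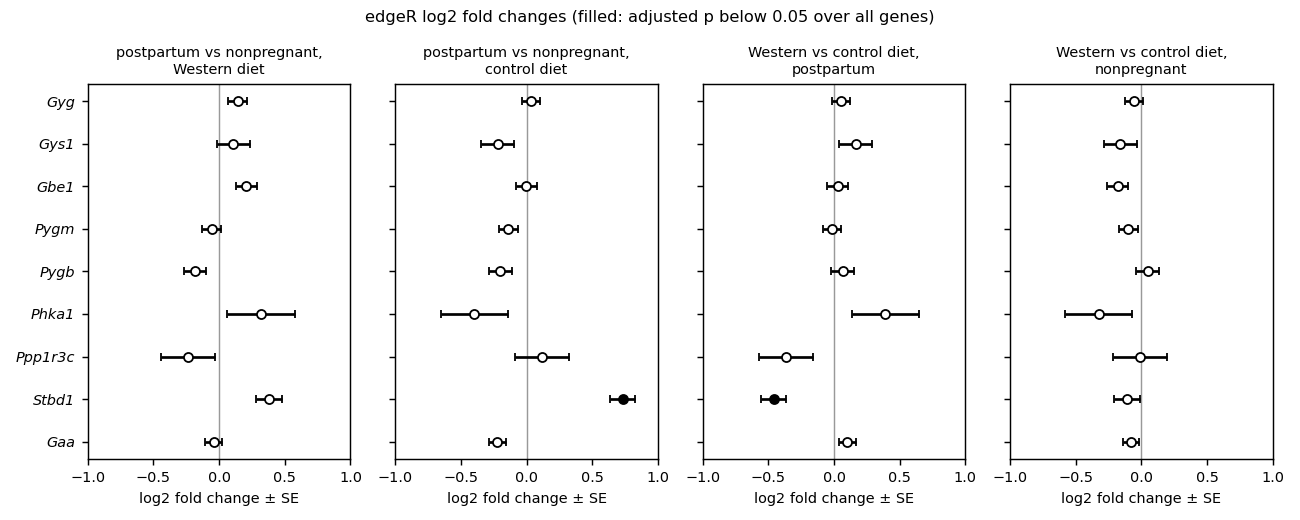
Log2 fold change with its standard error for each of the 9 genes (rows, by role) in 4 comparisons (panels), from edgeR. Filled points passed an adjusted p of 0.05 over all genes: only Stbd1 did, at 0.73 for postpartum against nonpregnant on the control diet and at -0.46 for Western against control diet in postpartum hearts.

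Gyg, which primes the particle, is ENSMUSG00000019528 on chromosome 3, positions 20122084 to 20155317, minus strand. It stood at 174, 162 and 164 CPM in Western diet postpartum hearts and at 153, 163 and 168 CPM in control diet postpartum hearts. It stood at 143, 149 and 163 CPM in Western diet nonpregnant hearts and at 146, 169 and 157 CPM in control diet nonpregnant hearts. The 4 groups overlapped, and the highest library of all was only 1.22 times the lowest, the narrowest spread of the 9. The log2 fold change between postpartum and nonpregnant hearts was 0.14 ± 0.069 (SE; adjusted p = 0.375) on the Western diet and 0.033 ± 0.069 (adjusted p = 0.886) on the control diet.

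Gys1, which lengthens the chains, is ENSMUSG00000003865 on chromosome 7, positions 45434844 to 45456619, plus strand, and 6.47% of its exon bases overlap the opposite-strand gene Ruvbl2. Its level was 141, 122 and 143 CPM in Western diet postpartum hearts and 119.7, 119 and 123 CPM in control diet postpartum hearts. It was 104, 139 and 134 CPM in Western diet nonpregnant hearts and 111, 154 and 157 CPM in control diet nonpregnant hearts. The control diet postpartum libraries lay close together, with a coefficient of variation of 1.91%, whereas those of the control diet nonpregnant group spread at 18.4%, with replicate 1 far below the other two. The log2 fold change was 0.11 ± 0.13 (adjusted p = 0.737) for postpartum against nonpregnant on the Western diet and -0.22 ± 0.13 (adjusted p = 0.508) on the control diet.

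Gbe1, which adds the branches, is ENSMUSG00000022707 on chromosome 16, positions 70313949 to 70569716, plus strand. It averaged 58.2 ± 3.34 CPM (SD, n = 3) in Western diet postpartum and 57.2 ± 0.984 CPM in control diet postpartum hearts, 50.4 ± 4.83 CPM in Western diet nonpregnant and 57.2 ± 5.55 CPM in control diet nonpregnant hearts. The Western diet nonpregnant group was the lowest by its mean, with libraries at 45.6, 50.4 and 55.2 CPM, which overlap the 54.6 to 61.2 CPM of Western diet postpartum and the 50.9 to 61.4 CPM of control diet nonpregnant hearts. The log2 fold change was 0.21 ± 0.082 between Western diet postpartum and Western diet nonpregnant hearts, with an unadjusted p of 0.0244 and an adjusted p of 0.261 in edgeR's test.

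Pygm, the muscle phosphorylase, is ENSMUSG00000032648 on chromosome 19, positions 6384399 to 6398459, plus strand. It measured 1191, 1084 and 1330.5 CPM in Western diet postpartum hearts and 1266, 1237 and 1143 CPM in control diet postpartum hearts. It measured 1265, 1225 and 1260.2 CPM in Western diet nonpregnant hearts and 1322, 1313 and 1385 CPM in control diet nonpregnant hearts. The control diet nonpregnant libraries were all above the 3 control diet postpartum and the 3 Western diet nonpregnant libraries. Neither difference passed: the log2 fold change was -0.14 ± 0.072 (adjusted p = 0.450) for postpartum against nonpregnant on the control diet and -0.100 ± 0.072 (adjusted p = 0.717) for Western against control diet in nonpregnant hearts.

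Pygb, the brain phosphorylase, is ENSMUSG00000033059 on chromosome 2, positions 150786735 to 150831758, plus strand. It measured 727, 729.6 and 909 CPM in Western diet postpartum hearts and 774, 746 and 741 CPM in control diet postpartum hearts. It measured 949, 858 and 879 CPM in Western diet nonpregnant hearts and 936, 796 and 867 CPM in control diet nonpregnant hearts. Of the 6 postpartum libraries, 5 lay below each of the 6 nonpregnant ones, and Western diet postpartum replicate 3 lay among the nonpregnant values. Over both diets the log2 fold change was -0.19 ± 0.062, with an unadjusted p of 0.0077 and an adjusted p of 0.125. Without Western diet postpartum replicate 3 it was -0.25 with an adjusted p of 0.0413, the one setting among the 12 that each left out 1 library in which a member other than Stbd1 passed.
The ratio of Pygb to Pygm per length was 0.439 ± 0.0265 (SD, n = 3) in Western diet postpartum, 0.416 ± 0.0161 in control diet postpartum, 0.479 ± 0.0198 in Western diet nonpregnant and 0.433 ± 0.0362 in control diet nonpregnant hearts. In each library the muscle form was thus the more abundant transcript; the groups' ratios were not tested against each other.

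Phka1, which regulates phosphorylase kinase, is ENSMUSG00000034055 on chromosome X, positions 102513975 to 102644246, minus strand. It measured 75.4, 61.8 and 87.8 CPM in Western diet postpartum hearts and 44.5, 58.1 and 68.9 CPM in control diet postpartum hearts. It measured 43.9, 76.6 and 59.7 CPM in Western diet nonpregnant hearts and 44.3, 94.3 and 88.1 CPM in control diet nonpregnant hearts. The groups overlapped, and the control diet nonpregnant group alone ran from 44.3 to 94.3 CPM, with a coefficient of variation of 36.1%. The interaction had the largest log2 value of the 9 genes, 0.72 ± 0.36 (adjusted p = 0.578), made up of 0.32 ± 0.26 for postpartum against nonpregnant on the Western diet and -0.40 ± 0.26 on the control diet.

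Ppp1r3c, which brings protein phosphatase 1 to glycogen, is ENSMUSG00000067279 on chromosome 19, positions 36731737 to 36736653, minus strand. It measured 125, 53.4 and 109.6 CPM in Western diet postpartum hearts and 125, 117 and 129 CPM in control diet postpartum hearts. It measured 108, 114 and 118 CPM in Western diet nonpregnant hearts and 123, 106 and 112 CPM in control diet nonpregnant hearts. Western diet postpartum replicate 2, at 53.4 CPM, lay well below the other 11, which ran from 106 to 129 CPM and overlapped between groups. The log2 fold change between Western diet and control diet postpartum hearts was -0.37 ± 0.20 (adjusted p = 0.447), and without that library it was -0.082.

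**Figure D3:**
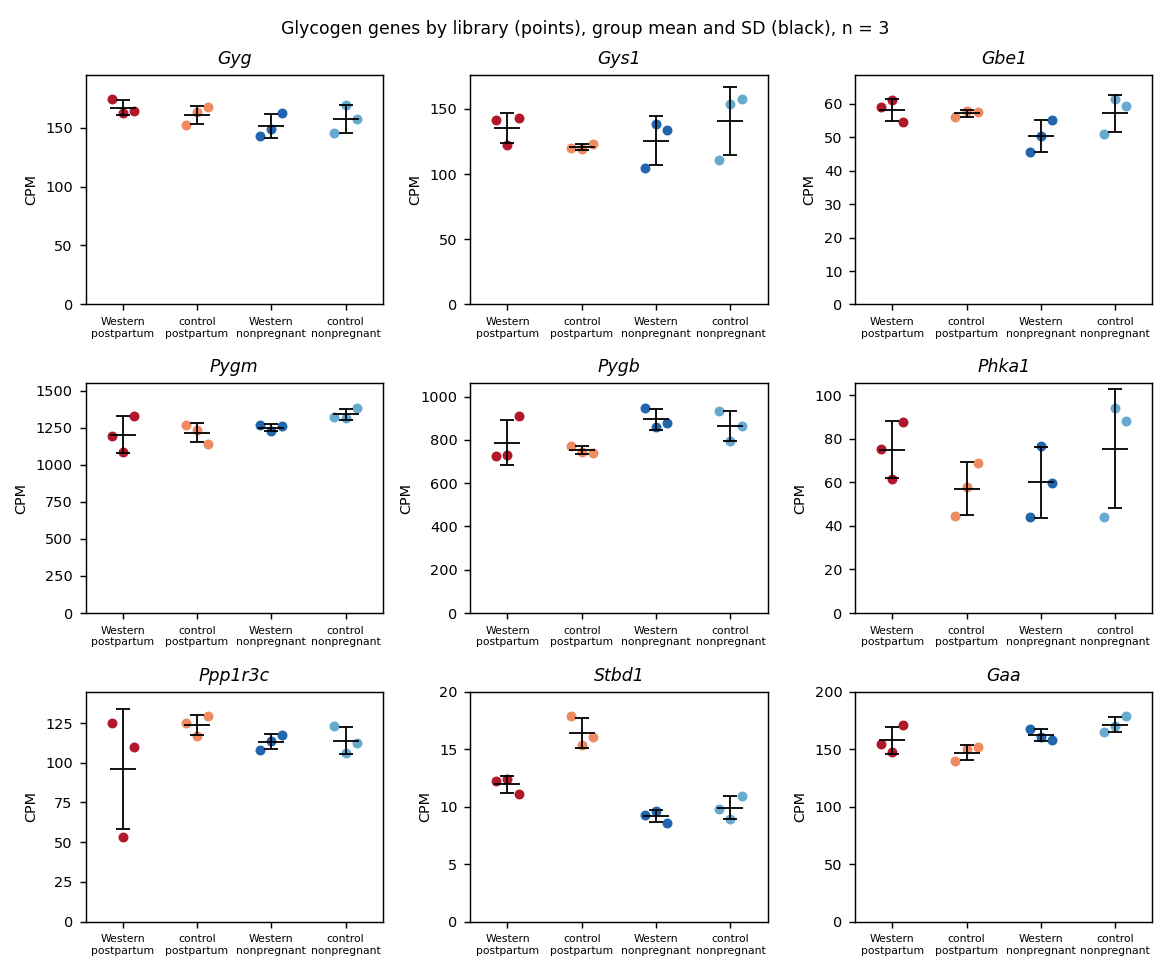
CPM of the 9 genes in each library (points, with group means and SD as black marks, n = 3), from Western diet postpartum on the left to control diet nonpregnant on the right of each panel, with axes that start at 0. Stbd1 is the panel in which all 6 postpartum points, 11.1 to 17.9 CPM, lie above all 6 nonpregnant points, 8.58 to 10.9 CPM; one low Ppp1r3c point, 53.4 CPM, is Western diet postpartum replicate 2.

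Stbd1, the glycogen tether, is ENSMUSG00000047963 on chromosome 5, positions 92603041 to 92606579, plus strand. None of its exon bases overlap another counted gene. It stood at 12.2, 12.4 and 11.1 CPM in Western diet postpartum hearts and at 17.9, 15.3 and 16.0 CPM in control diet postpartum hearts. It stood at 9.27, 9.65 and 8.58 CPM in Western diet nonpregnant hearts and at 9.78, 8.94 and 10.9 CPM in control diet nonpregnant hearts. These levels rest on 213 to 525 reads per library. All 6 postpartum libraries were above all 6 nonpregnant ones, the 3 control diet postpartum libraries were above all others, and the 2 nonpregnant groups overlapped.
On the control diet Stbd1 averaged 16.4 ± 1.30 CPM (SD, n = 3) in postpartum and 9.88 ± 0.997 CPM in nonpregnant hearts, a log2 fold change of 0.73 ± 0.095 (SE; adjusted p = 0.0199). On the Western diet it averaged 11.9 ± 0.705 CPM in postpartum and 9.17 ± 0.541 CPM in nonpregnant hearts, a log2 fold change of 0.38 ± 0.097 that did not pass (adjusted p = 0.0984). These groups did not overlap. The share of all genes that separate this way is not given here, so separation of groups, for any gene named, is a description only. Whether the 2 effects differ was asked by the interaction, which was -0.35 ± 0.14 with an unadjusted p of 0.0214 and an adjusted p of 0.489, and so did not pass. Over both diets the postpartum effect was 0.56 ± 0.068 (adjusted p = 0.00518), and it passed in each of the 12 fits that left out 1 library, at adjusted p values from 0.00316 to 0.0211.
By diet, Stbd1 fell in Western diet postpartum relative to control diet postpartum hearts by 0.46 ± 0.094 on the log2 scale (adjusted p = 0.0359). Between Western diet and control diet nonpregnant hearts the value was -0.11 ± 0.098 (adjusted p = 0.786), and averaged over both states it was -0.28 ± 0.068 (adjusted p = 0.057). Western diet postpartum hearts were not called different from control diet nonpregnant hearts, at 0.27 ± 0.097 (adjusted p = 0.153). The F test over all 4 groups gave Stbd1 an adjusted p of 0.00304, and the next of the 9, Gaa, one of 0.196.

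The 2 calls of Stbd1 between single groups were lost in some fits without 1 library, where fewer genes of all were called too. For control diet postpartum against nonpregnant hearts the adjusted p was 0.0991 without control diet postpartum replicate 1, 0.0577 without replicate 3, which carried fat genes, and 0.113 without control diet nonpregnant replicate 2, while the log2 fold change stayed between 0.67 and 0.81. For Western diet against control diet postpartum hearts it was 0.139 and 0.0873 without replicate 1 or 3 of the control diet postpartum group, and 0.0853 and 0.190 without replicate 1 or 3 of the Western diet postpartum group, with log2 fold changes between -0.51 and -0.40. Without both libraries that stood apart, a setting added after seeing the data, these values were 0.76 (adjusted p = 0.0536) and -0.51 (adjusted p = 0.0552), and the effect over both diets was 0.55 (adjusted p = 0.00729). A fit of only the 2 groups compared also ended both calls, at adjusted p of 0.0564 and 0.0684. Between control diet postpartum and nonpregnant hearts 37 of all genes were called with all 12 libraries. There 0, 1 and 0 were called in the fits named above without 1 library, 4 without both libraries and 6 with only the 2 groups. Between the postpartum groups 136 were called with all 12 libraries. There the same fits called 79, 74, 82 and 33, then 309 and then 71.

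In bulk tissue, fewer cells of a type and less RNA per cell cannot be told apart, and markers of some cell types moved with Stbd1. Between control diet postpartum and control diet nonpregnant hearts, 2 of 6 fibroblast markers, Col1a1 and Col1a2, rose. So did 3 of 6 macrophage markers, Cd68, C1qa and C1qb. The same 5 markers rose over both diets, where the call of Stbd1 held in each fit without 1 library. No other marker of either list was called in these 2 comparisons, and not all ran higher in postpartum hearts. On the control diet Tcf21 ran from 5.51 to 7.63 CPM in postpartum and 7.48 to 8.82 CPM in nonpregnant hearts. Lum ran from 82.6 to 95.3 CPM and from 54.5 to 76.9 CPM in the same groups. The summed fibroblast markers ran from 718 to 799 CPM in Western diet postpartum, 779.6 to 847 CPM in control diet postpartum, 725 to 769 CPM in Western diet nonpregnant and 569.8 to 714 CPM in control diet nonpregnant hearts. The summed macrophage markers ran from 169 to 205 CPM in Western diet postpartum, 184 to 208 CPM in control diet postpartum, 152 to 177 CPM in Western diet nonpregnant and 134 to 168 CPM in control diet nonpregnant hearts. No marker of either list was at 0 in a whole group. Between Western diet and control diet postpartum hearts, where Stbd1 fell, 0 of 6 markers in each list passed in edgeR's test, with medians of -0.12 for fibroblast and -0.17 for macrophage markers. There 3 fibroblast markers and 1 macrophage marker had an unadjusted p under 0.05, Col1a1 at -0.55 ± 0.15 (adjusted p = 0.109) among them, and DESeq2 called Col1a1 alone and limma-voom none. Of 5 endothelial markers edgeR called 0 in that comparison, 3 had an unadjusted p under 0.05, and DESeq2 called Pecam1 and Fabp4, both higher in Western diet postpartum hearts. Mitochondrial genes took 20.5% to 21.5% of the counts in Western diet postpartum and 19.2% to 19.4% in control diet postpartum libraries. With library sizes that leave these genes out Stbd1 stood at -0.46 (adjusted p = 0.0353). The scaling was then estimated again on counts that still held these genes, so this setting could hardly change a value. The part of the markers and of the mitochondrial share in the Stbd1 result was not tested.
The library with fat genes had Stbd1 at 16.0 CPM, between the 15.3 and 17.9 CPM of the other 2 control diet postpartum libraries.

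Among 11636 genes with at least 1 CPM in each library, the 5 whose log2 CPM followed Stbd1 most closely over the 12 libraries were Pf4 (Pearson r = 0.92), Dbn1 (0.91), Adamts2 (0.91), Cotl1 (0.89) and Loxl1 (0.89). Pf4, platelet factor 4, ran from 11.0 to 12.6 CPM in Western diet postpartum, 13.9 to 14.5 CPM in control diet postpartum, 9.35 to 11.1 CPM in Western diet nonpregnant and 9.20 to 9.66 CPM in control diet nonpregnant hearts. All 12 points share their libraries and the group structure, and these likenesses are a description.

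Gaa, the lysosomal glucosidase, is ENSMUSG00000025579 on chromosome 11, positions 119267887 to 119285454, plus strand. It measured 155, 148 and 171 CPM in Western diet postpartum hearts and 139.5, 149.8 and 152 CPM in control diet postpartum hearts. It measured 168, 160.4 and 158 CPM in Western diet nonpregnant hearts and 165, 170.4 and 179 CPM in control diet nonpregnant hearts. The control diet postpartum libraries were all below the control diet nonpregnant ones, while the Western diet groups overlapped. The difference on the control diet was -0.22 ± 0.064 on the log2 scale, with an unadjusted p of 0.0038 and an adjusted p of 0.181. On the Western diet the postpartum difference was -0.040 ± 0.064 (adjusted p = 0.823), and over both diets it was -0.13 ± 0.045 (adjusted p = 0.151). Gaa and Stbd1 thus had values of opposite sign after delivery on the control diet, and only that of Stbd1 passed.
The 5 genes most like Gaa over the 12 libraries were Zfp46 (r = 0.89), Nipsnap2 (0.88), Itpr3 (0.88), Srrm1 (0.87) and Rxra (0.87), again as a description.

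Whether any of the 9 genes varied together from library to library within groups was asked pair by pair, and no pair passed the adjusted test. Of the 36 pairs, Gys1 and Phka1 had the closest deviations from their group means, with a Pearson r of 0.91 and a Spearman rho of 0.85 over the 12 libraries. In control diet nonpregnant hearts both were lowest in replicate 1, at 111 CPM for Gys1 and 44.3 CPM for Phka1, and in Western diet nonpregnant hearts both were lowest in replicate 1, at 104 and 43.9 CPM. The exact permutation test within groups, two-sided, gave p = 0.00386 for r and p = 0.0123 for rho, where the smallest possible is 0.00077. Adjusted over the 36 pairs these were 0.139 and 0.435, so the relation did not pass. Without the 2 libraries whose Gys1 deviation from the group mean lay farthest from the median of these deviations, r was 0.79. Gbe1 and Pygb had r = -0.76 and Gyg and Gbe1 r = 0.80, with adjusted p of 0.222 and 0.370 in the same exact permutation test.

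**Figure D4:**
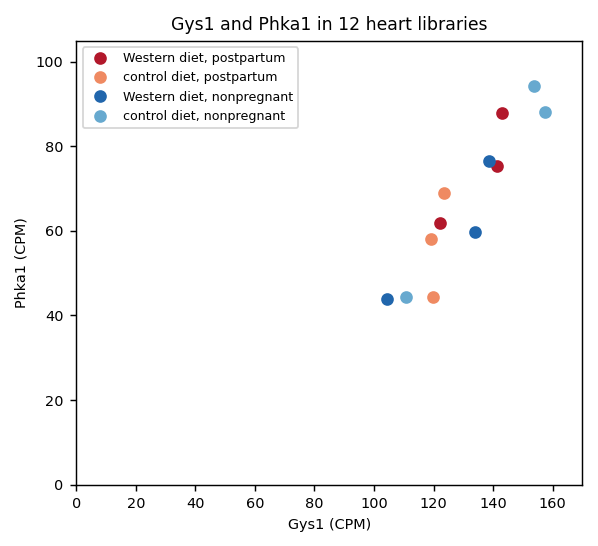
Phka1 against Gys1, both in CPM with axes from 0, with a point per library coloured by group. In each group but the control diet postpartum one the library lowest in Gys1 is also the lowest in Phka1, and the 12 points run from 104 CPM Gys1 with 43.9 CPM Phka1 up to 157 CPM Gys1 with 88.1 CPM Phka1.

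The other genes of the pathway were mostly not called. Of 29 further glycogen genes, which include the liver forms Pygl and Gys2, the other phosphorylase kinase subunits and the other targeting subunits of protein phosphatase 1, 28 were tested; Gys2 was too low. In edgeR's test 1 of the 28, Phka2, the liver form of the kinase's alpha subunit, fell in 2 of the 8 comparisons, and none passed in the other 6, with 3 to 9 of the 28 (10.7% to 32.1%) at an unadjusted p under 0.05, where 8.98% to 17.6% of all genes were. Limma-voom gave the same 2 calls of Phka2, and DESeq2 added calls of Ugp2 and Phkg1. The 7 subunits of AMPK, the energy sensor that binds glycogen, gave no call in any of the 8 comparisons by edgeR, DESeq2 or limma-voom, with 0 to 2 of the 7 at an unadjusted p under 0.05 in edgeR's test, where 8.98% to 18.2% of all genes were. Of 12 lysosomal and Atg8-type genes, Gabarapl1 rose in 3 comparisons, where 0.879% to 2.62% of all genes were called by edgeR. The other 11 were not called in any by edgeR. Over the 8 comparisons, 0 to 5 of the 12 had an unadjusted p under 0.05 in edgeR's test, where 8.98% to 18.2% of all genes did. The most, 5 (41.7%), were between Western diet and control diet postpartum hearts, against 14.6% of all genes. The interaction had 4 (33.3%), against 8.98% of all genes. DESeq2 also called Gabarapl1 higher in Western diet postpartum than in Western diet nonpregnant hearts. It called Map1lc3b and Ctsl higher in Western diet postpartum than in control diet postpartum hearts. Map1lc3b was also called higher by DESeq2 on the Western diet averaged over both pregnancy states. Of all genes DESeq2 called 345, 438 and 479 in these comparisons, in that order.

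Phka2 is on chromosome X, positions 160502166 to 160598878. It measured 18.1, 18.4 and 17.2 CPM in Western diet postpartum hearts and 23.3, 22.0 and 20.1 CPM in control diet postpartum hearts. It measured 19.7, 19.5 and 19.9 CPM in Western diet nonpregnant hearts and 22.0, 25.2 and 24.3 CPM in control diet nonpregnant hearts. Every Western diet library was below every control diet library. Averaged over both pregnancy states Phka2 fell on the Western diet by 0.28 ± 0.052 on the log2 scale (adjusted p = 0.0194), and between Western diet postpartum and control diet nonpregnant hearts by 0.41 ± 0.075 (adjusted p = 0.0144). The average effect of diet on Phka2 had an adjusted p of 0.0501 without control diet postpartum replicate 1 and of 0.0595 when replicate 3 of the Western diet postpartum group was left out. It was 0.0653 without replicate 2 of the Western diet nonpregnant group and 0.0576 without replicate 2 of the control diet nonpregnant group, at -0.25 to -0.31 over the 12 such fits. The fits without this call called 83 to 127 of all genes, against 214 with all 12 libraries. The call against control diet nonpregnant hearts was lost without Western diet postpartum replicate 1 (adjusted p = 0.0532) or 3 (0.0619) and without control diet nonpregnant replicate 2 (0.071) or 3 (0.0502), and with only these 2 groups in the fit (0.0557). Those fits called 87 to 146 of all genes, against 406 with all 12 libraries. Phka1, the muscle counterpart of Phka2, had an average diet value of 0.033 ± 0.18 (adjusted p = 0.963).

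Gabarapl1, an Atg8-type protein of autophagosome membranes, is on chromosome 6, positions 129533160 to 129542346. It measured 106, 120.2 and 137 CPM in Western diet postpartum hearts and 85.5, 79.1 and 80.7 CPM in control diet postpartum hearts. It measured 102, 96.0 and 96.5 CPM in Western diet nonpregnant hearts and 101, 85.3 and 88.6 CPM in control diet nonpregnant hearts. The Western diet postpartum libraries were the 3 highest of the 12 and the control diet postpartum group had the lowest mean, the reverse of the order of Stbd1 in the postpartum hearts. Between Western diet and control diet postpartum hearts Gabarapl1 rose by 0.57 ± 0.087 on the log2 scale (adjusted p = 0.00775), and this call held in each of the 6 fits that left out 1 library of these groups, at 0.47 to 0.65. It also rose between Western diet postpartum and control diet nonpregnant hearts, by 0.40 ± 0.087 (adjusted p = 0.0294), and by diet averaged over both states, by 0.33 ± 0.062 (adjusted p = 0.0178). The first of these 2 was not called without Western diet postpartum replicate 3 (adjusted p = 0.104), nor without replicate 2 (0.122) or 3 (0.0947) of control diet nonpregnant hearts, nor with only these 2 groups in the fit (0.101). The second was not called without control diet nonpregnant replicate 2 (adjusted p = 0.0556). Those fits called 89 to 146 of all genes for the first, against 406, and 100 for the second, against 214. The interaction of Gabarapl1 was 0.47 ± 0.12 (adjusted p = 0.359). Of its exon bases, 28.3% overlap the opposite-strand gene 1700101I11Rik, which had at most 47 counts in a library.

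Other measures moved with the diet calls of Phka2 and Gabarapl1. Averaged over both states, 3 of 5 endothelial markers, Pecam1, Tie1 and Fabp4, rose on the Western diet, by 0.21, 0.22 and 0.38 on the log2 scale (adjusted p = 0.0221, 0.0336 and 0.0196 in edgeR's test). Between Western diet postpartum and control diet nonpregnant hearts Pecam1 and Fabp4 rose, as did the fibroblast marker Pdgfra and the macrophage marker C1qb. The 5 endothelial markers summed to 1472 to 1539.7 CPM in Western diet postpartum, 1212 to 1314 CPM in control diet postpartum, 1262 to 1469 CPM in Western diet nonpregnant and 1145 to 1213 CPM in control diet nonpregnant hearts, and none was at 0 in a whole group. Mitochondrial genes took 20.4% to 21.5% of the counts in the 6 Western diet libraries and 19.2% to 20.2% in the 6 control diet libraries, so the diets did not overlap. With library sizes that leave out mitochondrial genes, the average diet values were -0.28 for Phka2 (adjusted p = 0.0185) and 0.33 for Gabarapl1 (adjusted p = 0.0185). As above, the scaling was estimated again on counts that held these genes, so this setting could hardly change a value. The part of the endothelial markers and of the mitochondrial share in these results was not tested.

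**Figure D5:**
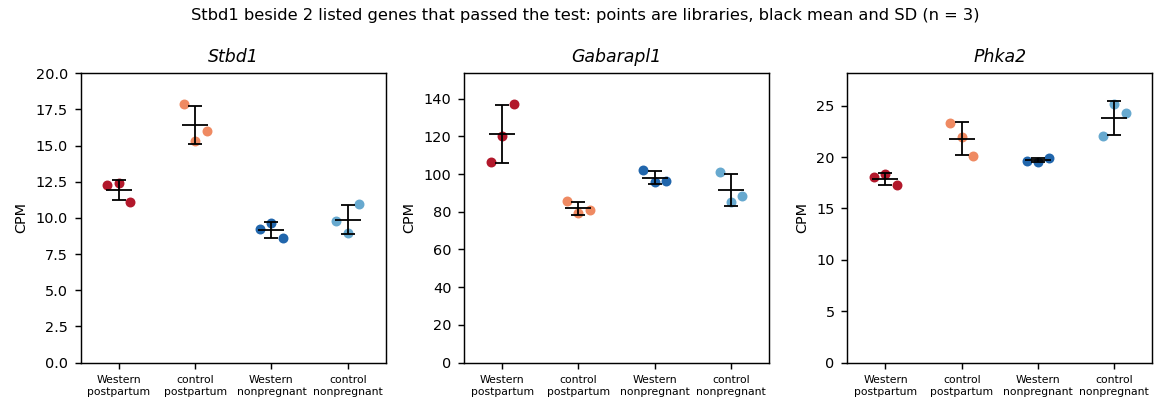
CPM of Stbd1, Gabarapl1 and Phka2 in each library (points, with group means and SD as black marks, n = 3), from Western diet postpartum on the left to control diet nonpregnant on the right, with axes from 0. In postpartum hearts Stbd1 is lower on the Western diet (11.9 against 16.4 CPM) and Gabarapl1 higher (121 against 81.8 CPM), and all 6 Western diet points of Phka2, 17.2 to 19.9 CPM, lie below all 6 control diet points, 20.1 to 25.2 CPM.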

How the data were processed

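Gene counts of 12 heart libraries, 3 per group, were used as the authors deposited them: whole-number read counts, not normalized. Per the labels' protocols, a Qiagen RNeasy kit was used for RNA and the NEBNext Ultra kit for the libraries. Per the submitters' processing notes, the tools were STAR 2.5.2b, FastQC and, from Subread 1.5.2, featureCounts, with the GRCm38 (mm10) build. Strand setting and annotation release: not given in the sources used here. Reads from genes that overlap on opposite strands therefore cannot be told apart. The submitters state that the raw reads were lost. Groups were taken from the diet and time point labels. Replicates are numbered in accession order, which pairs nothing.

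Gene identifiers were matched to symbols by a GENCODE M21 table; 345 identifiers without a symbol, with 0.0218% to 0.0248% of each library's counts, stayed in the tests unnamed. Counts were filtered with filterByExpr (minimum count 10, minimum total 15), scaled by TMM, edgeR's trimmed mean and fitted in edgeR 4.0.16 (R 4.3.3) with a mean per group over all 12 libraries, where the common biological coefficient of variation was 9.62%. The quasi-likelihood F test was adjusted by Benjamini-Hochberg within each of the 8 comparisons, which are related contrasts of the same libraries. Each standard error is the log2 fold change divided by the root of its F value. Group averages of CPM use TMM-scaled library sizes, and likeness used log2(CPM + 0.5). The procedure was tested on simulated data.

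The named genes are all 9 members, every gene of 3 fixed pathway lists past the threshold, and the 5 genes most like Stbd1 and most like the next member in the F test over all groups, with predicted and clone names left out. The members and the lists were chosen with earlier results of these data known, so no list was tested as a set. One gene of the glycogen list enters its counts and is not reported here by itself. Alternatives were edgeR with DESeq2's size factors, with every gene that had a count, or with genes at 1 CPM in 3 libraries, DESeq2 1.42.0, limma-voom (limma 3.58.1), library sizes without mitochondrial genes, only the groups compared, TPM for levels, and each library left out in turn. Reads carry no molecular identifiers, so limits from counts cover counting error only. Promoter sequences came from a RefSeq table; a protein table and a genome were not used here.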

Additional observations from a re-analysis of the deposited data

How the results depend on the processing

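Each of the 9 genes had at least 213 reads in each library, and there were only 3 libraries per group. The sign of Stbd1 was the same in each of the 8 comparisons under every alternative run. The number of the 9 genes called was the same under DESeq2's size factors, 1 CPM in 3 libraries, limma-voom and library sizes without mitochondrial genes in each of the 8 comparisons, and under DESeq2 in 7, with 1 instead of 0 for the average effect of diet. DESeq2 called 479 of all genes for that effect, and it gave Stbd1 no adjusted p for the interaction. Library sizes without mitochondrial genes could hardly change a value, because the scaling was estimated again on counts that held these genes. With only the groups compared in the fit, 0 were called between control diet postpartum and nonpregnant hearts (Stbd1, adjusted p = 0.0564) and 0 between Western diet and control diet postpartum hearts (Stbd1, 0.0684). Of all genes, 6 and 71 were called in these fits, against 37 and 136 with all 12 libraries. Without the 2 libraries that stood apart, chosen after seeing the data, 0 were called in these same 2 comparisons, where 4 and 309 of all 15669 genes were. Leaving out 1 library gave 0 to 1 calls in each of the 2 comparisons, and 1 to 2 for pregnancy averaged over diets. Of all genes, 0 to 205, 33 to 490 and 52 to 567 were then called, in that order. With no filter on low counts, where the fit gave every gene the trended spread with infinite prior degrees of freedom (5.74 otherwise), 2, 2, 3, 1, 1, 2, 2 and 2 were called: postpartum against nonpregnant on the Western and on the control diet, Western against control diet in postpartum and in nonpregnant hearts, Western diet postpartum against control diet nonpregnant hearts, interaction, pregnancy averaged and diet averaged. Of the 29761 genes in that fit, 933, 744, 1048, 454, 1315, 506, 1262 and 1029 were called, in the same order. The added calls among the 9 were of Phka1, Ppp1r3c, Pygb and Stbd1.

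Outside the fits that left out 1 or 2 libraries, reversals were of uncalled values near 0. Gbe1 on the control diet, -0.00073 in the report's fit, was 0.0041 with DESeq2's size factors, 0.0088 with no filter, 0.0062 with 1 CPM in 3 libraries, 0.0058 with DESeq2, 0.0048 with limma-voom, 0.0025 without mitochondrial genes and 0.0073 with only the groups compared. Pygb's interaction was -0.0038 and Gys1's average diet value -0.00097 with no filter, Gyg's average diet value was 0.00092 with 1 CPM in 3 libraries, and Phka1 in Western diet postpartum against control diet nonpregnant hearts was 0.057 with limma-voom. Leaving out 1 library also turned uncalled values, not all of them near 0. With all 12 libraries Ppp1r3c stood at -0.24 for postpartum against nonpregnant on the Western diet. It stood at -0.25 for Western diet postpartum against control diet nonpregnant hearts. For postpartum against nonpregnant on the control diet the ranges were -0.012 to 0.093 (Gyg) and -0.071 to 0.058 (Gbe1), and on the Western diet -0.0096 to 0.18 (Gys1), -0.10 to 0.00057 (Gaa), -0.14 to 0.0085 (Pygm) and -0.47 to 0.047 (Ppp1r3c). For Western against control diet in postpartum hearts they were -0.014 to 0.071 (Gbe1), -0.095 to 0.048 (Pygm) and -0.050 to 0.12 (Pygb), and in nonpregnant hearts -0.11 to 0.0041 (Gyg), -0.0064 to 0.11 (Pygb) and -0.053 to 0.056 (Ppp1r3c). For Western diet postpartum against control diet nonpregnant hearts they were -0.19 to 0.037 (Gys1), -0.047 to 0.082 (Gbe1), -0.28 to 0.19 (Phka1) and -0.48 to 0.042 (Ppp1r3c). They were -0.098 to 0.071 for Pygb's interaction, and -0.18 to 0.067 (Phka1) and -0.18 to 0.086 (Ppp1r3c) for pregnancy averaged. For diet averaged they were -0.069 to 0.062 (Gys1), -0.029 to 0.026 (Gyg), -0.019 to 0.033 (Gaa), -0.0010 to 0.088 (Pygb) and -0.10 to 0.13 (Phka1). The cause was not tested. No paired analysis was possible because the titles give each library a number of its own and no number is shared between groups.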

Other observations

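Some further glycogen genes that did not pass edgeR's test are given as values, chosen after their values were seen. Ugp2, which makes the UDP-glucose that glycogen synthase uses, stood at 361, 322 and 359 CPM in Western diet postpartum hearts and at 253, 268 and 313 CPM in control diet postpartum hearts. It stood at 237, 282 and 289.9 CPM in Western diet nonpregnant hearts and at 251, 296 and 259.9 CPM in control diet nonpregnant hearts. The 3 Western diet postpartum libraries were the highest of the 12, and the log2 fold change against control diet nonpregnant hearts was 0.37 ± 0.097 (adjusted p = 0.0603). Phkg1, the muscle form of the catalytic subunit of phosphorylase kinase, had a log2 fold change of -0.51 ± 0.11 between Western diet and control diet nonpregnant hearts (adjusted p = 0.142) and an interaction of 0.64 ± 0.15 (adjusted p = 0.357) in edgeR's test, and both were called by DESeq2.

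The control diet postpartum library that carried fat genes was also the highest in the liver forms of 2 glycogen enzymes. Pygl stood there at 14.2 CPM, against 3.41 to 5.56 CPM in the other 11 libraries, and Gys2 at 1.43 CPM, against at most 0.0704 CPM. The 9 genes did not show such a gap in that library: 8 of them lay within the range of the other 11, and Ppp1r3c, at 129 CPM, lay just above their highest value, 125 CPM.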
